A study of Mus musculus with 24 samples.

Results

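Hepatocyte identity rests on a small set of transcription factors, and 9 of their genes, Hnf4a, Foxa1, Foxa2, Foxa3, Cebpa, Cebpb, Nr5a2, Onecut1 and Prox1, were followed through RNA-Seq of whole mouse liver. The genes were chosen by name, and all 9 were found among the 56205 genes of the table and among the 17913 that had enough counts to be tested. Livers came from C57BL/6J mice of both sexes, with no transgene or deleted allele named for either group, and poly(A) RNA was sequenced from 12 livers on a high-fat diet (FFD) and from 12 on a control diet, each fed for 20 weeks. By the study's methods, feeding began in young adult animals. The labels do not give the sex of a library, nor a litter or cage, and p-values therefore measure the spread between these libraries. Depth ranged from 14468418 to 22112552 counts per library, and the members had between 118 and 14553 counts in every library.

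These proteins work as a network. HNF4A, a nuclear receptor that binds DNA as a homodimer, drives genes for apolipoproteins, clotting factors and gluconeogenesis, and the FOXA proteins are forkhead factors that open compacted chromatin at liver enhancers. The C/EBP proteins are leucine zipper factors, of which C/EBPα maintains the metabolic program of the resting hepatocyte and C/EBPβ rises in the acute-phase response and in regeneration. NR5A2 (LRH-1) is a nuclear receptor for bile acid and cholesterol genes, ONECUT1 (HNF6) is a cut-homeodomain factor that shapes hepatocytes and bile ducts and takes part in sex-dependent expression, and PROX1 is a homeodomain corepressor of HNF4A and NR5A2 that also specifies lymphatic endothelium. They bind each other's promoters, and the network as a whole keeps the hepatocyte differentiated.

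Of the 9 members, none rose and 2 fell on the high-fat diet by a rule that asked for an adjusted p up to 0.01 and a log2 fold change past 0.5, the thresholds the study used for RNA-Seq. They were Onecut1 and Foxa3, both close to the threshold: the count was 1 with the size factors of DESeq2, 0 with upper quartile factors, limma-voom or no filter on low counts, 0 to 2 with any 1 library left out, and 3 with the trend with GC content removed, where Cebpa joined them, or with the library set described further on as a covariate, where Prox1 did. Over all genes tested, 4.99% were called lower and 13.2% higher by this rule, with edgeR's quasi-likelihood test on counts scaled by TMM factors and Benjamini-Hochberg adjustment over all 17913 genes. With an adjusted p of at most 0.05 and no demand on size, 6 members were lower and 0 higher, beside 18.9% lower and 20.7% higher over all genes. The 6 were Hnf4a, Foxa3, Cebpa, Nr5a2, Onecut1 and Prox1, whereas Foxa1, Foxa2 and Cebpb did not pass. No member was higher at an unadjusted p under 0.05 in edgeR, and none was called higher by DESeq2 or by limma-voom. All 9 fold changes were below 0, as were 52.8% of those of all genes. The median over the members was −0.40 on the log2 scale and the median over all genes was −0.03.

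Hepatocyte transcripts filled these libraries: Alb, which encodes albumin, was the most abundant gene in 23 of the 24, and the exception was control diet replicate 10, where Mup7 led. The 12 hepatocyte markers summed to 92630 to 147632 CPM (counts per library scaled to a common total) on the control diet and to 43678 to 104286 CPM on the high-fat diet, and 10 of them were lower and 0 higher by the stricter rule, with a median log2 fold change of −0.71. With library totals in place of TMM factors, 3 of the 12 were lower by that rule, as were 226 of all 17913 genes, and the median was −0.40. Genes of other cells moved in the same comparison. Of 10 macrophage and monocyte markers, 9 were higher on the high-fat diet by that rule, with sums of 606 to 1235 CPM against 144 to 594 CPM, and the exception was Clec4f, at 147 CPM against 127 CPM. Of 7 cholangiocyte markers 5 were higher, with sums of 46.3 to 934 CPM against 42.3 to 152 CPM, and of 8 stellate cell markers 5 were higher, with sums of 211 to 656 CPM against 79.7 to 278 CPM. Krt19, a defining marker of bile ducts, had a lowest, median and highest value of 0.509, 0.925 and 2.49 CPM in control livers and of 1.01, 2.64 and 48.1 CPM in livers of the high-fat diet. The highest came from high-fat diet replicate 9, and without it the log2 fold change of Krt19 went from 2.72 to 1.70 (adjusted p = 0.000141 by edgeR). Of 7 endothelial markers 1 was higher, Stab2, which missed the rule without high-fat diet replicate 3 (log2 fold change 0.44) or control diet replicate 4, 7 or 12. The 6 T cell markers summed to at most 9.69 CPM in any library. In whole liver, fewer hepatocytes and less RNA of a gene per hepatocyte cannot be told apart, and the part of these markers in the members' values was not tested.

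**Figure D1:**
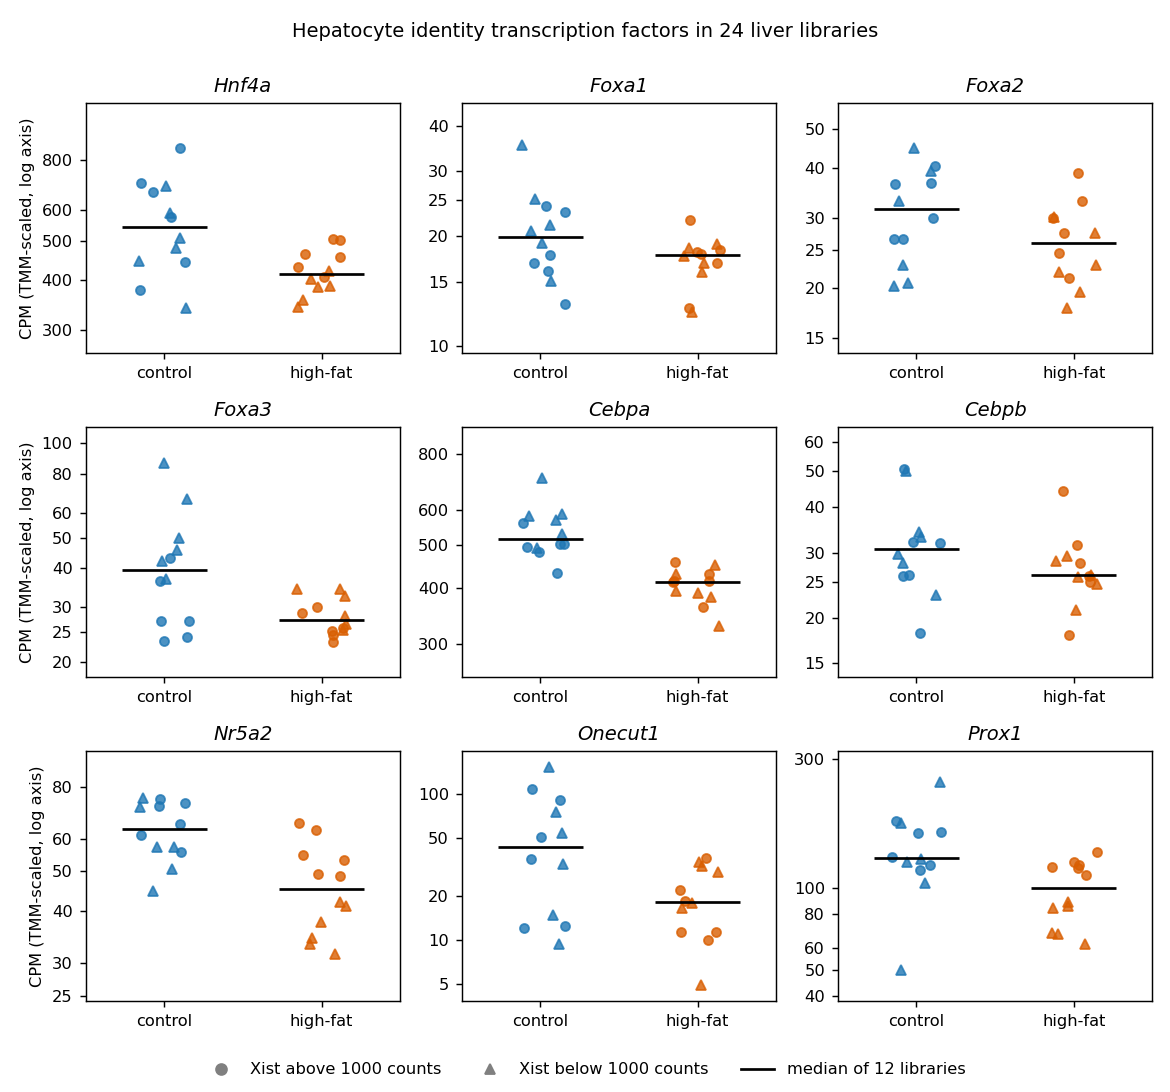
CPM, scaled by TMM factors and drawn on a log axis, of each of the 9 genes in 24 liver libraries (12 per diet). Each point is a library, circles and triangles mark libraries with Xist above and below 1000 counts, and black lines are medians; the median is lower on the high-fat diet in all 9 panels, while the points of the diets overlap in each.

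Hnf4a (ENSMUSG00000017950) is transcribed in mouse from a pair of promoters, of which the downstream one is the promoter of adult liver and the upstream one serves other tissues and developmental stages. RefSeq places starts of the gene 40298 bases apart on the plus strand of GRCm38.p6, and a table of counts per gene adds the products of both. The bases before each start are shown because the diet comparison could not separate them. They were searched on both strands for 7 motifs, the HNF1 half-site GTTAAT, the HNF4 element CAAAGTCCA, TGTTTNC for FOXA, TTGCNNAA for C/EBP, ATCNAT for ONECUT, CAAGGNCA for NR5A2 and the TATA box TATAAA, and matches are in capitals. The stretches lie at chr2:163506607-163506807 (upstream start) and chr2:163546943-163547154 (downstream start), both without annotated exons, and run 5′ to 3′ along the gene.
Hnf4a upstream: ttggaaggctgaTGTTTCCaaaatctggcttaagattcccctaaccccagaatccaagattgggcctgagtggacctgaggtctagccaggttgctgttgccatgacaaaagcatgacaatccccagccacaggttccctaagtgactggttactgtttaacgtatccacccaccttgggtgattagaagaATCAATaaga
Hnf4a downstream: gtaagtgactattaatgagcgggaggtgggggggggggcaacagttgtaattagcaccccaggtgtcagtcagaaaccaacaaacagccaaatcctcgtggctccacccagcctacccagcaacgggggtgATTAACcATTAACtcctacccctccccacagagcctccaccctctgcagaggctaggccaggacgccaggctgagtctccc
The upstream stretch held 1 FOXA and 1 ONECUT match, at 238 and 59 bases before its start, where it also overlaps the antisense gene Hnf4aos. The downstream stretch held 2 HNF1 half-sites, at 81 and 74 bases before its start. Among 32851 RefSeq promoter windows of 250 bases, 17.8% held the FOXA letters, 18.9% the ONECUT letters and 6.43% the HNF1 half-site, so a match describes letters and is not a site.

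Hnf4a had a lowest, median and highest value of 340, 543 and 854 CPM in the 12 control livers. The 12 livers on the high-fat diet spanned 342, 414 and 505 CPM. All 12 lay below the control median and 7 control livers lay above every liver of the high-fat diet, but the lowest controls overlapped with them. The log2 fold change was −0.40 (SE 0.12, 95% interval −0.65 to −0.14, adjusted p = 0.0126 by edgeR), from a mean of 556 ± 151 to 421 ± 52.6 CPM (SD, n = 12). The difference therefore passed the wider rule and missed the stricter one, both by its p and by its size.

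Of the FOXA genes only Foxa3 passed a rule. Foxa3 (ENSMUSG00000040891), the member of the trio that is most abundant in adult liver by classical measurements, fell by 0.59 on the log2 scale (SE 0.17, 95% interval −0.93 to −0.24, adjusted p = 0.00787 by edgeR). Its lowest, median and highest values were 23.4, 39.5 and 86.8 CPM on the control diet and 23.3, 27.3 and 34.3 CPM on the high-fat diet. All 12 livers of the high-fat diet again lay below the control median, within a narrow band that the lower control livers shared. Foxa1 (ENSMUSG00000035451) had 13.01, 19.9 and 35.5 CPM on the control diet and 12.4, 17.7 and 22.1 CPM on the high-fat diet, a log2 fold change of −0.27 (SE 0.13, adjusted p = 0.0973). For Foxa2 (ENSMUSG00000037025), which controls genes of fasting and bile acid handling, the values were 20.3, 31.5 and 44.8 CPM against 17.9, 26.0 and 38.9 CPM, a log2 fold change of −0.26 (SE 0.14, adjusted p = 0.140). The 95% intervals of the log2 fold change were −0.53 to −0.01 for Foxa1 and −0.55 to 0.03 for Foxa2, so a fall of similar size to that of Hnf4a lay inside both. That Foxa3 passed and the other two did not does not show that they differed: the ratio of Foxa3 to Foxa2 counts within a liver had a median of 1.17 in control livers and 1.15 in livers of the high-fat diet, and its mean log2 difference of −0.24 had a two-sided permutation p of 0.335.

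The bases before the starts of Foxa3 and Onecut1 are shown because these members fell most, the first on the minus strand at chr7:19023540-19023789 and the second on the plus strand at chr9:74861671-74861920, in the same build and with the same motifs in capitals.
Foxa3: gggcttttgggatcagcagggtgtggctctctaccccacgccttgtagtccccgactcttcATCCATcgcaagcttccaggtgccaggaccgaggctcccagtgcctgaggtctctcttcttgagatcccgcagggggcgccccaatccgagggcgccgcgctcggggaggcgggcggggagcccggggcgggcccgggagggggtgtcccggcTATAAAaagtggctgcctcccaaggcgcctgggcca
Onecut1: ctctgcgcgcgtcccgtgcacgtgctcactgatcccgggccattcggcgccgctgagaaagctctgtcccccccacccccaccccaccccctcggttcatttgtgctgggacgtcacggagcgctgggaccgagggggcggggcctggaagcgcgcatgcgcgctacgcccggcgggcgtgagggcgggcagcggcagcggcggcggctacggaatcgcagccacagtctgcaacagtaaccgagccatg
Foxa3 held an ONECUT match at 189 bases before its start and a TATA box at 36, letters present in 18.9% and 12.4% of all windows. None of the 7 letter patterns was found in the Onecut1 window, which was 71.6% G and C beside a median of 52.4% over all windows.

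Onecut1 (ENSMUSG00000043013) showed the largest change of the 9 members and the widest spread. It fell by 1.41 on the log2 scale (SE 0.41, 95% interval −2.25 to −0.56, adjusted p = 0.00825 by edgeR), to a mean that was 37.7% of the control mean. With replicate number added to the fit as a block, the log2 fold change was −1.06 and passed neither rule (adjusted p = 0.102 by edgeR). The lowest, median and highest values were 9.46, 43.6 and 153 CPM on the control diet and 4.99, 18.3 and 36.8 CPM on the high-fat diet. Of the 12 control livers, 6 exceeded every liver of the high-fat diet, at 50.9 CPM or more, while the other 6 lay within the range of the high-fat diet. The coefficient of variation was 82.8% on the control diet and 51.4% on the high-fat diet. A higher coefficient on the control diet was found for 8 of the 9 members, the exception being Nr5a2, and for 74.9% of the 7986 genes with a mean of at least 10 CPM.

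Cebpa and Cebpb are single-exon genes of the same family. Cebpa (ENSMUSG00000034957) had the smallest standard error and the lowest p of the 9. Its lowest, median and highest values were 432, 516 and 707 CPM on the control diet and 329, 414 and 457 CPM on the high-fat diet. In TMM-scaled CPM the groups almost separated. Of the 12 control livers, 11 lay above every liver of the high-fat diet, and 10 of the 12 high-fat livers lay below every control. The log2 fold change was −0.40 (SE 0.08, 95% interval −0.56 to −0.24, adjusted p = 0.000217 by edgeR), under the size that the stricter rule asked for. With library totals in place of TMM factors it was −0.10 and passed neither rule (adjusted p = 0.250 by edgeR). Cebpb (ENSMUSG00000056501) had 18.1, 30.8 and 50.9 CPM against 17.9, 26.1 and 44.2 CPM, ranges that overlapped almost whole, and a log2 fold change of −0.22 (SE 0.15, 95% interval −0.52 to 0.08, adjusted p = 0.234). The ratio of Cebpb to Cebpa counts, which needs no scaling between libraries, had a median of 0.0580 in control livers and 0.0642 in livers of the high-fat diet. The mean log2 ratio was 0.20 higher on the high-fat diet, with a two-sided permutation p of 0.206, so a shift between the pair was not shown. The promoter of Cebpa, shown as that of the member with the clearest separation of the diets in TMM-scaled CPM, lies on the plus strand at chr7:35119043-35119292.
Cebpa: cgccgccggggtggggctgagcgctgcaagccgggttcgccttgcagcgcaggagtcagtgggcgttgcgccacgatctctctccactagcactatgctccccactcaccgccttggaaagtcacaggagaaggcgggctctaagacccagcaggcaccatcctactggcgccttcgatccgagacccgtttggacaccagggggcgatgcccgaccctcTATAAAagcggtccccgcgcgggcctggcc
It held a TATA box match at 30 bases before the start and no other of the 7 patterns. The gene Gm45091 overlaps this window, and for Cebpb the window overlaps Tmem189. Whether counting used strand is not given in the sources used here, so reads of such partners could not be told apart wherever exons overlap. These windows themselves held no annotated exon.

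Nr5a2 (ENSMUSG00000026398) was the only member with a coefficient of variation that was higher on the high-fat diet, at 24.6% against 16.2%. On that diet it spanned 48.8 to 65.5 CPM in the libraries with Xist above 1000 counts and 31.5 to 42.1 CPM in those below. Within these sets, described further on, the SD was 6.96 and 4.33 CPM, beside 7.62 and 11.9 CPM on the control diet. Over all livers, the lowest, median and highest values were 44.8, 63.3 and 75.4 CPM on the control diet and 31.5, 45.4 and 65.5 CPM on the high-fat diet. The log2 fold change was −0.45 (SE 0.12, 95% interval −0.70 to −0.21, adjusted p = 0.00388 by edgeR), so its p passed the stricter rule and its size did not. Prox1 (ENSMUSG00000010175) had 49.7, 129 and 247 CPM on the control diet and 62.1, 100.4 and 136 CPM on the high-fat diet. Its log2 fold change was −0.51 (SE 0.18, 95% interval −0.87 to −0.14, adjusted p = 0.0259), and the adjusted p rose above 0.05 without high-fat diet replicate 7, 9 or 10 (0.0512, 0.0512 and 0.0521) or without control diet replicate 7 (0.0592). Both the lowest and the highest Prox1 value came from control livers. Prox1 also marks lymphatic endothelium, and among 6 lymphatic markers only Pdpn passed the stricter rule, with a median of 0.156 CPM in control livers and 0.518 CPM in livers of the high-fat diet, while Ccl21a averaged 0.521 CPM in control livers and 0.469 CPM in livers of the high-fat diet. High-fat diet replicate 9 held 10.8 CPM of Pdpn, and the log2 fold change was 3.27 with it and 2.11 without it. The ratio of Prox1 to Nr5a2 counts, a corepressor over its partner, had a median of 2.22 in control livers and 2.14 in livers of the high-fat diet. The mean log2 difference was 0.01, beside SDs of 0.47 and 0.19 over the libraries of each diet, with a two-sided permutation p of 0.957.

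The ratios compared were 4, the other being Foxa1 over Foxa2, with a mean log2 difference of 0.02 (p = 0.916). After Benjamini-Hochberg adjustment over the 4 ratios the p-values were 0.671 to 0.957 by permutation, and none passed in either set of libraries described further on.

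The scaling between libraries bears on every value above. TMM factors were 0.679 to 1.01 in control livers and 0.994 to 1.34 in livers of the high-fat diet, so the scaling itself moved with the diet. With library totals alone, the median log2 fold change of all genes moved from −0.03 to 0.26, and the share of higher genes among all those called by the stricter rule moved from 72.6% to 94.4%. Foxa1, Foxa2 and Cebpb then stood at 0.01, 0.02 and 0.08, the other 6 members stayed below 0, as did 25.5% of all genes. Only Onecut1 (log2 fold change −1.14, adjusted p = 0.0279 by edgeR) then passed the wider rule, beside 4.16% of genes that were lower.

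**Figure D2:**
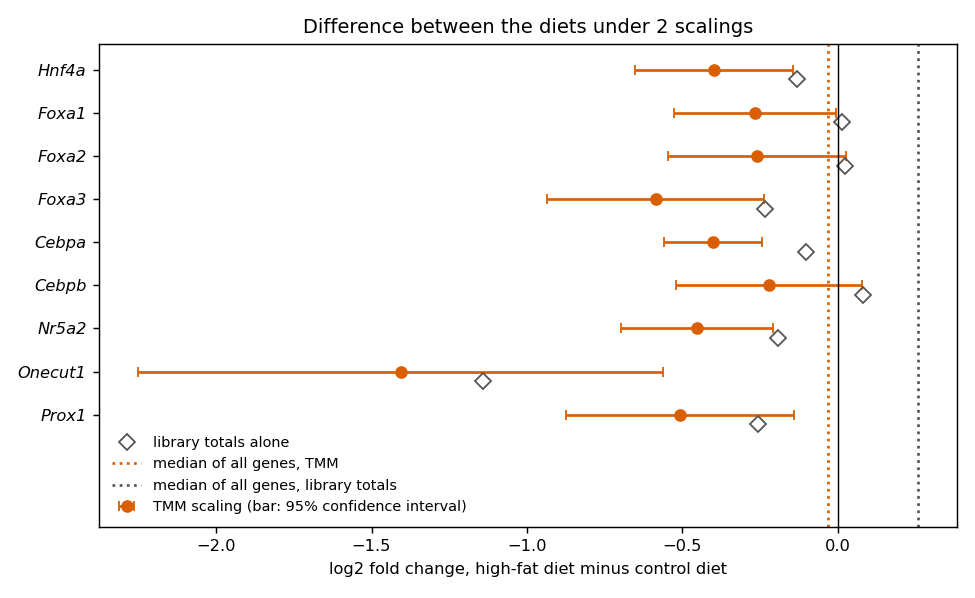
Log2 fold change between the diets for each gene, with TMM scaling (filled circles, 95% confidence interval, 12 libraries per diet) and with library totals alone (open diamonds). Dotted lines are the medians of all genes, −0.03 and 0.26; all 9 circles are below 0, and the diamonds of Foxa1, Foxa2 and Cebpb lie at or just above 0.

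Levels of different genes were set side by side only per length, as CPM per kilobase of the longest annotated transcript. On the control diet Cebpa stood first at 204 ± 26.9 CPM per kilobase and Hnf4a next at 127 ± 34.6 (SD, n = 12), beyond the SD of each other. Below them came Cebpb at 21.2 ± 6.51, Foxa3 at 20.8 ± 9.18, Prox1 at 17.8 ± 6.09, Foxa2 at 14.8 ± 3.86, Onecut1 at 13.7 ± 11.4 and Nr5a2 at 13.4 ± 2.17 CPM per kilobase, and each of these lay within the SD of its neighbours in the order. Foxa1 was lowest, at 6.48 ± 1.88 CPM per kilobase. On the high-fat diet the order kept its first 6 places, and Onecut1 went from place 7 to place 9, at 5.18 ± 2.66 CPM per kilobase, which did not differ from Foxa1 at 5.39 ± 0.825 beyond its spread.

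**Figure D3:**
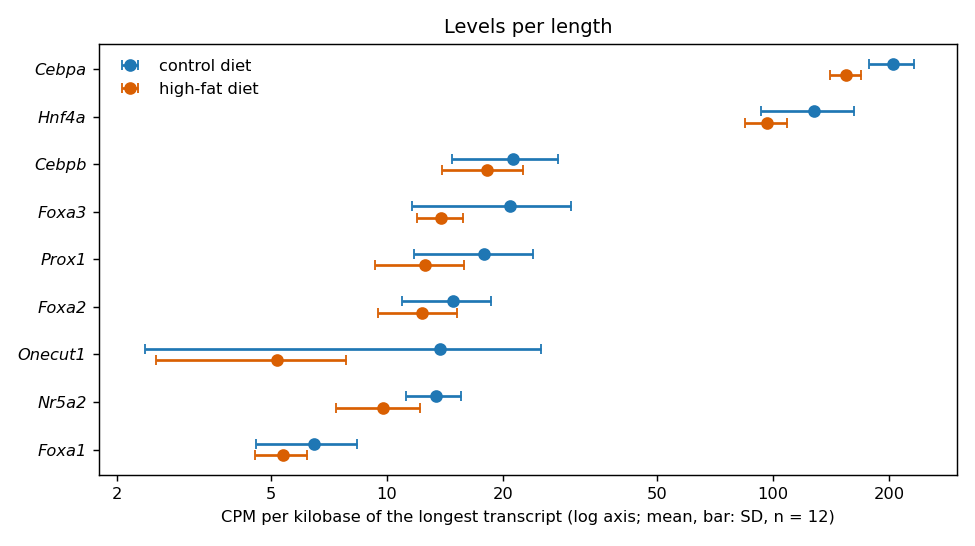
Mean level of each gene per kilobase of its longest transcript, on a log axis, with SD over 12 libraries per diet. Cebpa and Hnf4a stand at 96.6 CPM per kilobase or more in both diets and the other 7 genes at 21.2 or less.

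The libraries fell into sets by Xist, the noncoding RNA of the inactive X chromosome, with 2664 to 6285 counts in replicates 1 to 6 of each diet and 0 to 3 counts in replicates 7 to 12. The sets were drawn from these counts and not from the labels, with 6 livers per diet in each. In the set with Xist above 1000 counts all 9 members were lower on the high-fat diet by their fold change, as were 49.3% of all genes, but 0 had an adjusted p of at most 0.05, beside 5.16% of genes that were lower. In the set with Xist below 1000 counts all 9 were again below 0, as were 51.9% of genes, and 5 passed, Hnf4a, Foxa3, Cebpa, Nr5a2 and Prox1, beside 16.9% of genes that were lower.

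In the set with Xist below 1000 counts, Foxa3 spanned 25.3 to 34.3 CPM on the high-fat diet and 37.0 to 86.8 CPM on the control diet. Cebpa spanned 329 to 451 CPM against 493 to 707 CPM. For Nr5a2 the range was 31.5 to 42.1 CPM against 44.8 to 75.4 CPM. In TMM-scaled CPM these 3 members did not overlap between the diets, beside 9.66% of all genes with every high-fat liver below every control in this set. None of the 9 was free of overlap in the other set (2.39% of genes) or over all 24 libraries (0.402%). TMM factors of the set with Xist below 1000 counts were 1.12 to 1.34 (high-fat diet) and 0.679 to 0.956 (control diet). Overlap was not examined with library totals. The log2 fold changes in the sets with Xist below and above 1000 counts were −0.84 and −0.19 for Foxa3, −0.53 and −0.25 for Cebpa, −0.68 and −0.26 for Nr5a2 and −0.84 and −0.23 for Prox1. Hnf4a stood at −0.40 and −0.38 and Onecut1 at −1.31 and −1.49. Onecut1 had an adjusted p of 0.0905 and 0.0545 in these sets by edgeR, with 6 livers per diet in each.

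A test of the difference itself, the interaction of diet with set in edgeR, passed for 0 of the 9 members at an adjusted p of at most 0.05, beside 10.2% of all genes. At an unadjusted p under 0.05 it passed for 3, Foxa3 (difference of the log2 fold changes −0.65, SE 0.24, adjusted p = 0.0895), Nr5a2 (−0.43, SE 0.17, adjusted p = 0.104) and Cebpa (−0.29, SE 0.14, adjusted p = 0.201), beside 23.9% of genes. DESeq2 also gave 0 at the adjusted threshold, and with library totals 0 passed even unadjusted. A difference between the sets was therefore not shown for any member.

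**Figure D4:**
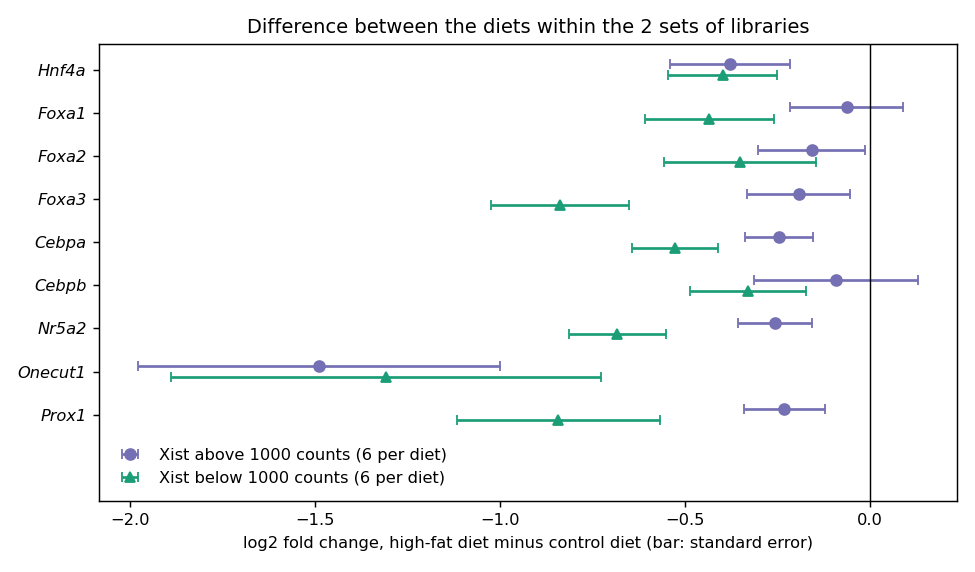
Log2 fold change between the diets within the libraries with Xist above (circles) and below (triangles) 1000 counts, with standard errors, 6 libraries per diet in each. All 18 values lie below 0; Foxa3, Nr5a2 and Prox1 sit farther from 0 in the set with Xist below 1000 counts, a difference that no test of the interaction passed.

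Within groups, members varied together only in part. After the mean of each diet and set was subtracted from log2(CPM + 1), the 36 pairs of members had Pearson's r from −0.42 to 0.73 over the 24 libraries, with a median of 0.24 and 25 pairs above 0. After Benjamini-Hochberg adjustment over the 36 pairs, 2 passed, and both joined Onecut1 to a FOXA gene. Onecut1 varied with Foxa1 (r = 0.73, permutation p = 0.00058, adjusted p = 0.0104; Spearman's rho = 0.72, p = 0.00059, adjusted p = 0.0212). It varied with Foxa2 as well (r = 0.73, permutation p = 0.00032, adjusted p = 0.0104), where Spearman's rho was 0.67 (p = 0.00171, adjusted p = 0.0308). Without the 2 libraries farthest from the median, r stayed at 0.73 for both pairs. Within the sets of 12 libraries with Xist above and below 1000 counts, r was 0.82 and 0.66 for Foxa1 and 0.64 and 0.79 for Foxa2, and within the control and high-fat diets it was 0.72 and 0.77 for Foxa1 and 0.74 and 0.72 for Foxa2. Onecut1 with Foxa3 had the lowest r, −0.42, with an adjusted p of 0.365 by permutation. These livers share a scaling per library, which can add to any r.

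**Figure D5:**
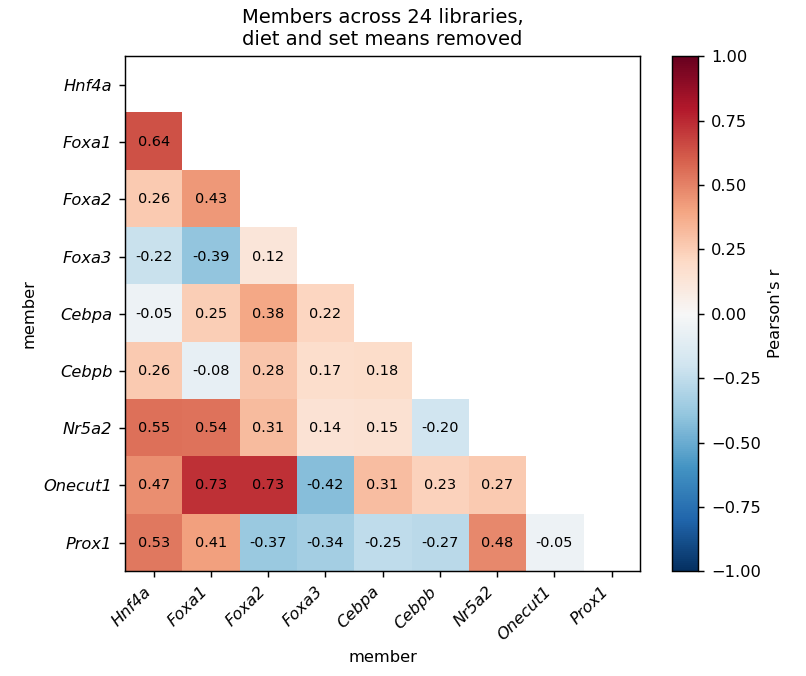
Pearson's r of each pair of members over 24 libraries, after subtraction of the means of diet and Xist set, in red above 0 and blue below 0. The pairs of Onecut1 with Foxa1 and Foxa2 stand highest at 0.73, and Foxa3 with Onecut1 lowest at −0.42.

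The gene whose residual pattern was nearest to each member, among 7985 genes with a mean of at least 10 CPM, is given as a description. It was Clip1 for Hnf4a (r = 0.90), Hyal1 for Foxa1 (0.86), Phlda1 for Foxa2 (0.95), Eif3d for Foxa3 (0.84) and Abcc6 for Cebpa (0.83). For Cebpb it was Pim3 (0.91), for Nr5a2 Xpnpep3 (0.88), for Onecut1 Arid5b (0.86) and for Prox1 Tmem30b (0.93). None of the nearest genes was itself a member.

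The antisense genes Hnf4aos and Prox1os were also lower. Hnf4aos, which overlaps the upstream Hnf4a promoter, had 0.646 to 3.36 CPM on the control diet and 0.0483 to 1.003 CPM on the high-fat diet, a log2 fold change of −1.44 (SE 0.32, adjusted p = 0.000830 by edgeR). All 12 livers of the high-fat diet were below the control median, at counts as low as 1. Prox1os, beside Prox1, had 4.59 to 14.4 CPM against 1.99 to 6.58 CPM, a log2 fold change of −0.69 (SE 0.20, adjusted p = 0.00875), with 9 of the 12 below the control median. Prox1os missed the stricter rule in 13 of the 24 fits that left out 1 library, with an adjusted p of up to 0.0184. In the sets with Xist below and above 1000 counts the log2 fold changes were −2.35 and −0.68 for Hnf4aos and −1.38 and −0.09 for Prox1os, and the interaction had an adjusted p of 0.0468 and 0.00825. As the strand setting of the counting is not given, reads of these genes and of Hnf4a or Prox1 could not be told apart wherever their exons overlap. The remaining 4 genes of this list of antisense or neighbouring noncoding genes could not be tested, 1 being at 0 in every library and 3 having no symbol here.

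Other transcription factors of the network were counted by the same rules. Of 19 liver-enriched factors outside the 9, 4 were lower by the stricter rule and 0 higher, and 8 were lower and 0 higher at an adjusted p of at most 0.05. The 4 were Zbtb20 (log2 fold change −0.76), a zinc finger factor that silences fetal liver genes, Klf15 (−0.64), which controls amino acid breakdown and gluconeogenesis, Onecut2 (−0.55), the paralog of Onecut1, and Creb3l3 (−0.54), which activates genes of fasting and triglyceride clearance. Onecut2 missed the rule without high-fat diet replicate 7 or 9 or control diet replicate 1 or 3, with a log2 fold change of −0.49 in the last case. The median of the 19 was −0.25. With library totals it was 0.07, beside −0.03 and 0.26 for all genes, and 0 of the 19 were then lower or higher by the stricter rule. Of all 17913 genes, 226 were then lower and 3827 higher. Of 5 further genes listed with the C/EBP family, none passed the stricter rule. At an adjusted p of at most 0.05 the stress factor Ddit3 was higher (0.48). Cebpz, which was listed by its name alone, was lower (−0.48), and the median of the 5 was −0.04.

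Genes that textbook accounts place under these factors were counted as lists, which share genes such as Pck1, Ttr, Tat and Alb with each other and with the hepatocyte markers. Of 16 HNF4A targets 7 were lower and 0 higher by the stricter rule, 12 were lower and 0 higher by the wider rule of 0.05, and all 16 fold changes were below 0, with a median of −0.62. Slc10a1, the sinusoidal bile acid importer, had a log2 fold change of −1.46 (SE 0.24, adjusted p = 5.13e-05), from 431 ± 95.6 to 157 ± 80.8 CPM (SD, n = 12, edgeR). G6pc and Pck1, the gluconeogenic enzymes, stood at −1.15 and −1.12, and Apoc3, an apolipoprotein of triglyceride-rich particles, at −0.82. Cyp7a1, the rate-limiting enzyme of bile acid synthesis, was at −0.03 with an adjusted p of 0.954.

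Of 9 FOXA targets 6 were lower and 0 higher, with a median of −0.62, among them Tat (−1.33), a tyrosine-degrading enzyme, Cps1 (−0.99), the entry enzyme of the urea cycle, and Alb (−0.72). Of 10 metabolic targets of C/EBPα 8 were lower and 0 higher, with a median of −0.76. Of 10 acute-phase targets of C/EBPβ 3 were higher and 1 lower by the stricter rule, 5 were higher and 1 lower by the wider rule, and 3 fold changes were below 0, with a median of 1.01. Lcn2, an iron-scavenging protein, rose by 3.11 on the log2 scale (SE 0.44, adjusted p = 8.84e-06 by edgeR), from 25.1 ± 18.0 to 217 ± 197 CPM (SD, n = 12). The acute-phase glycoprotein Orm2 rose by 2.89 and the interleukin-1 antagonist Il1rn by 1.45, and Fgb, a fibrinogen chain, was at −0.65. Lcn2 and Il1rn are also made by myeloid cells, whose markers rose in these livers, and the part of those cells was not tested. The targets of NR5A2 were divided, with Abcg5 (0.74), a sterol exporter, higher and Apom (−1.20), an apolipoprotein, lower among the 8 tested, and a median of 0.01. With library totals the medians of the HNF4A, FOXA and C/EBPα lists were −0.34, −0.32 and −0.48, still below 0, while the median of all genes was 0.26, and 4, 3 and 4 genes of these lists were lower by the stricter rule. The C/EBPβ list then had 5 higher and 0 lower, and the NR5A2 list 3 higher and 1 lower. Over all 17913 genes, 226 were lower and 3827 higher by the stricter rule with library totals.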

How the data were processed

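RNA-Seq of whole mouse liver was analysed from 1 table in which the authors deposited raw counts, whole numbers for each Ensembl gene, of 24 libraries of poly(A)-selected RNA. The submitters' processing notes name bcl2fastq, STAR 2.7.3a and mm10. The study's supplement describes quantification for reads aligned to the human genome; for the mouse libraries the gene annotation, the counting tool and its strand setting are not given in the sources used here. GENCODE M21 gave symbols to 51745 of 56205 gene IDs, and the other 4460 held 0.0723% of the counts, so counting used an annotation other than M21. Each column was matched to its library by title and each diet came from the labels.

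The 17913 genes counted at least 1 time in 12 or more libraries were tested with edgeR 4.0.16 (R 4.3.3), glmQLFit and glmQLFTest, TMM factors and Benjamini-Hochberg adjustment, without covariates. Alternatives used limma 3.58.1, DESeq2 1.42.0, other scalings and filters, the trend with GC content removed, the Xist set as a covariate, and each library left out. Ratios and correlations used two-sided permutation tests with 100000 resamples, within diet and set for correlations. CPM are counts relative to the TMM-scaled library size, and correlations used a pseudocount of 1 CPM. Promoters are RefSeq windows of GRCm38.p6 (250 bases before each start, 14 windows for the 9 members), printed outside exons of M21. The fits were tested on simulated counts.

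The members and lists were chosen with earlier results of these data known. All members are named; of each list at most 4 called genes are named, those with the largest fold change, plus a gene whose role needed it (Cyp7a1, Clec4f, Krt19, Ccl21a). Libraries of a diet differed beyond sampling noise in every pair, with a chi-square over its degrees of freedom of at least 17.0 among control livers and 9.48 among livers of the high-fat diet. The labels do not pair the diets by replicate number. Deviations of same-numbered libraries, which shared their Xist set, correlated at −0.0935 to 0.541, with 11 of 12 over 0.1.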

Additional observations from a re-analysis of the deposited data

Results flagged for a closer look

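Genes named from the lists outside the 9 members, except Cyp7a1, Clec4f, Ccl21a, Ttr and Spp1, were examined for an interaction of diet with set. Of these, 5 had a diet effect that differed between the libraries with Xist below and above 1000 counts. They passed in edgeR at an adjusted p up to 0.05 over all genes, as did 10.2% of genes. The effect in the set below minus that in the set above, on the log2 scale, was −1.68 (SE 0.54) for Hnf4aos and −1.30 (SE 0.31) for Prox1os, the antisense genes. It was −1.11 (SE 0.34, adjusted p = 0.0344) for Zbtb20, with log2 fold changes of −1.25 and −0.15 in these sets. For Slc10a1 it was −1.17 (SE 0.23, adjusted p = 0.00181), with −2.21 and −1.04. Il1rn differed by 1.52 (SE 0.29, adjusted p = 0.00129), with 2.40 and 0.87.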

How the results depend on the processing

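Across 13 alternatives for each of the 9 members, leave-one-out fits aside, 114 of 117 log2 fold changes were below 0. The 3 others came with library totals alone, Foxa1 at 0.0117, Foxa2 at 0.0225 and Cebpb at 0.0800. No alternative called a member higher. The count of 2 members lower by the stricter rule was fragile, since Foxa3 and Onecut1 stood close to the threshold of 0.01. It was 0 with library totals alone, with upper quartile factors, with limma-voom, with no filter on low counts, with at least 10 counts in every library, and in the libraries with Xist above 1000 counts. It was 1 with the size factors of DESeq2 in edgeR and 1 with a log2 fold change over 1. It was 2 with the DESeq2 test or edgeR's default filter, and 3 with the trend with GC content removed (Cebpa at −0.54, adjusted p = 8.61e-06 by edgeR, joined), with the Xist set as a covariate (Prox1 at −0.55, adjusted p = 0.00958, joined), in the libraries with Xist below 1000 counts, and with an adjusted p up to 0.05. With 1 library left out it ranged from 0 to 2, and it was 2 without control diet replicate 4 or 6 (Foxa3 and Onecut1), high-fat diet replicate 4 (Nr5a2 and Onecut1) or control diet replicate 10 (Onecut1 and Prox1), 0 without any of 9 libraries (high-fat diet replicates 1, 2, 3, 6, 7, 8 and 11, control diet replicates 8 and 9) and 1 without any of the other 11. The count of 6 members with an adjusted p of at most 0.05 was 1 with library totals alone and 0 in the libraries with Xist above 1000 counts, where 12 libraries entered, and ranged from 5 to 7 with 1 library left out. DESeq2 gave 6, limma-voom 5 and the removal of the GC trend 7. The libraries with Xist below 1000 counts, the same in number, gave 5. The cause of these changes was not tested.

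With a replicate block in the fit, 0 members were lower by the stricter rule: Foxa3 stood at −0.49 (adjusted p = 0.00778 by edgeR) and Onecut1 at −1.06 (adjusted p = 0.102). The labels give the numbers no shared litter or batch, and 2 of 12 libraries of the high-fat diet correlated best with their own number. Libraries of the same number did fall into the same Xist set in both diets, so whether the numbers mark a pairing was not settled.

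None of the 4 ratios passed under any alternative run. Differences near 0 changed sign: Foxa3/Foxa2 was 0.00281 in the libraries with Xist above 1000 counts, Foxa1/Foxa2 was −0.0853 and Prox1/Nr5a2 −0.0261 in those with Xist below, and with 1 library left out these ranged from −0.0535 to 0.0886 for Foxa1/Foxa2 and from −0.0930 to 0.0720 for Prox1/Nr5a2. The count of 2 correlated pairs was also 2 by Spearman's rho, with library totals and with a pseudocount of 0.1 CPM. Counting depth limited no member, the lowest count being 118.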

Other observations

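Control diet replicate 10 stood apart from the other 11 control livers, with the lowest depth (14468418 counts), the lowest TMM factor (0.679) and Mup7, a major urinary protein, in place of Alb as the most abundant gene. Among the control livers it had the lowest Hnf4a (340 CPM, the others 378 to 854 CPM) and the lowest Prox1 (49.7 CPM, the others 104 to 247 CPM). It also had the highest Foxa3 (86.8 CPM, the others 23.4 to 66.5 CPM) and the highest Cebpa (707 CPM, the others 432 to 587 CPM). Without it the log2 fold changes were −0.45 for Hnf4a, −0.59 for Prox1, −0.44 for Foxa3 and −0.36 for Cebpa, and all 4 kept an adjusted p of at most 0.05 by edgeR, with Prox1 at 0.00273. Without it the correlations of Onecut1 were 0.78 with Foxa1 and 0.78 with Foxa2.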
